A study of Mus musculus with 29 samples.

Results

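The 9 control embryos of a nuclear transfer experiment in the mouse were compared with each other, to find which transcripts differed most and least from embryo to embryo when no treatment was applied. They are 9 of the 29 libraries of the series, chosen by their label, and each library holds 1 whole embryo. Enucleated oocytes of the BDF1 strain were each given a nucleus from the cumulus, the somatic layer around the oocyte. They spent 1 h in KSOM medium, were activated for 6 h with 10 mM Sr2+, 5 ug/ml CB and 2 mM EGTA, and were then assigned at random to medium without HU (hydroxyurea, an inhibitor of ribonucleotide reductase) or with 10 uM HU, which was replaced after 24 h. All embryos were taken at 2 cells, 28 h after activation. The labels name no day, female or culture for any embryo, so differences between embryos hold whatever varied between these libraries, biological or technical. The 8 HU embryos, which came through the same transfer and activation, were not used to rank genes and serve here as separate embryos in which a ranking can be looked up. The 12 single cumulus cells stand for the donor cell type and count as 1 sample.

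In an early embryo the RNA comes from 2 sources. The oocyte leaves a store of maternal messages that the embryo uses and then degrades, and the new nucleus starts its own transcription, in the mouse in the main wave at the 2-cell stage. A transferred somatic nucleus has to be reset before it can do this. A gene can therefore differ between such embryos through the maternal store or through the transferred nucleus, and bulk RNA of a whole embryo does not tell these apart, nor fewer expressing cells from less RNA per cell.

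Gene counts per control embryo ranged from 1801261 (embryo 3) to 3472116 (embryo 9), with a median of 2469971, and 13875 to 15132 genes had a count. Rn45s, the precursor of ribosomal RNA, held 16.2% to 32.5% of gene counts, and gene counts without it per spike-in (ERCC) count ranged from 8.54 in embryo 1 to 15.7 in embryo 2. No pair of embryos agreed within sampling noise: the chi-square per degree of freedom was 14.9 to 41.3 over the 36 pairs, so all 9 were counted as separate libraries. Markers of other cell types summed, in CPM (a gene's counts scaled to the library's gene counts), to 111 to 259 for cumulus and granulosa cells (highest in embryo 3), 35.2 to 65.0 for endothelium, 16.1 to 59.7 for immune cells, 0 to 15.9 for theca and stroma and 0 to 3.30 for red cells. Of 38 cumulus and granulosa markers Amhr2 and Serpine2 reached a mean of 20 CPM, and of the endothelial ones Pecam1 did. The part of such cells in the results was not tested. Of 24448 gene rows, 6738 had a mean of at least 20 CPM in control embryos and were ranked. The rank is by excess variance, the variance of log2(CPM + 1) over the 9 embryos minus the variance usual for genes of the same mean, which was read from a smooth trend. Of the ranked genes, 3441 (51.1%) lay above the trend. The 50 genes at each end were taken as most variable and most stable. Since the values themselves chose these genes, their spread is given as a description.

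Promoters of 5 members the results turn on are shown first, as letters around the start site of transcription. They run from 250 bases before to 50 after the start in RefSeq on GRCm38.p6, 5′ to 3′ on the gene's strand. BC147527 varied most. Wdr77 and Hipk1 lie near each other on chromosome 3 and were both without a count in embryo 7. Gripap1 is one of 7 X-linked variable genes. Ppih was the most stable gene relative to its expected variance. Capitals mark matches, on either strand, to any of these short motifs: TATAAA, known from core promoters; GGGCGG, known as the Sp1 box; and TAATCC, a core bound by homeodomain proteins.
BC147527 (chr13:120300142-120300441, plus strand): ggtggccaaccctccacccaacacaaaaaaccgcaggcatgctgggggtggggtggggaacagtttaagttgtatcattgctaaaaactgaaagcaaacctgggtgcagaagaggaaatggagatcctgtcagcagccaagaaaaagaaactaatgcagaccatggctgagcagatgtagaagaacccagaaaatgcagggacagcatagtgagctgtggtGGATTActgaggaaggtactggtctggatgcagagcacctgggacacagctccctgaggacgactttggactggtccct
Wdr77 (chr3:105959248-105959547, plus strand): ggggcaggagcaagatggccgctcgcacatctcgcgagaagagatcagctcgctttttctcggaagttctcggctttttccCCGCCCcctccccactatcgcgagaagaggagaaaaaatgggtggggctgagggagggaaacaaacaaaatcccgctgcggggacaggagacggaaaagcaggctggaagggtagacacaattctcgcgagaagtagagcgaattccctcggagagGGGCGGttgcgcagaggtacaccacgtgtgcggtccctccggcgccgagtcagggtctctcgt
Hipk1 (chr3:103791512-103791811, minus strand): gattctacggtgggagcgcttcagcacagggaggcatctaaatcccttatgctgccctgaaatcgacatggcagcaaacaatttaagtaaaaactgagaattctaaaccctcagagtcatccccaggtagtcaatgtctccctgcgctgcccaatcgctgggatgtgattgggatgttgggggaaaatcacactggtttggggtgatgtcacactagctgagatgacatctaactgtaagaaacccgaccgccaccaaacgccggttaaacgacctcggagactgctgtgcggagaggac
Gripap1 (chrX:7789743-7790042, plus strand): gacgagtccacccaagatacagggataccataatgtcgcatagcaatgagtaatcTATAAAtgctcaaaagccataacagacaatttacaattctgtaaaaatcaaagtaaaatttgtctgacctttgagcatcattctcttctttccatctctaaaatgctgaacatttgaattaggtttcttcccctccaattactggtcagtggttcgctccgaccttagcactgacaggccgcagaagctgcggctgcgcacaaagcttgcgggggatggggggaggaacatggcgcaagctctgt
Ppih (chr4:119320474-119320773, minus strand): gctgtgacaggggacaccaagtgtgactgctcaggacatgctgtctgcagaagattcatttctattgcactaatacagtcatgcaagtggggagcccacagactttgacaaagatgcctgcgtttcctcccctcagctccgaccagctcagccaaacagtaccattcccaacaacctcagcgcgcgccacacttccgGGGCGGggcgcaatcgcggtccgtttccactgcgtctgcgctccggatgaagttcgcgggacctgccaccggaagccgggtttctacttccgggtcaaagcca
Of the 50 most variable genes, 38 matched a promoter in the table. TATAAA stood in 5 of them (13.2%), against 6.15% of the promoters of all ranked genes, GGGCGG in 24 (63.2%) against 68.2%, and TAATCC in 5 (13.2%) against 5.49%. Of the 40 promoters matched among the 50 genes most stable by ratio, none held TATAAA, and 35 (87.5%) had a CpG content of at least 0.6 of that expected from their C and G, against 79.9% of all ranked genes. The set stable by difference did not share this: of 37 promoters matched, 2 (5.41%) held TATAAA and 28 (75.7%) reached that CpG content. These matches describe the letters of a window of 300 bases and nothing further.

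The most abundant transcripts were the ribosomal RNA precursor, mitochondrial transcripts and messages of the oocyte. Rn45s had a mean of 208739 ± 52199 CPM (SD, n = 9), or 20.9% of gene counts, and it lay lowest in embryo 4 at 161793 CPM, at a median of 191831 CPM, and highest in embryo 9 at 324895 CPM. Among messages, Zbed3, which encodes a protein of the maternal complex beneath the oocyte cortex, stood first at 9548 ± 2552 CPM (SD, n = 9). Tcl1, a co-activator of Akt kinases, followed at 7615 ± 1584 CPM, and Spin1, a reader of methylated histone H3, at 7498 ± 1696 CPM. Of the other genes among the first 15, C86187, Gm1965, Omt2a, Omt2b, Khdc1b, Tcl1b1 and Ccdc6 ranged in mean from 2681 CPM (Ccdc6) to 5563 CPM (C86187). Mitochondrial ribosomal RNA mt-Rnr2 had 13980 ± 4154 CPM. Per length, as FPKM (CPM per kilobase), the order of levels was Rn45s at 35786 ± 8949, mt-Rnr2 at 8837 ± 2626, mt-Cytb at 7047 ± 3184, Omt2b at 5693 ± 864 and Tcl1 at 4640 ± 965 (SD, n = 9 each). The SDs of neighbours from mt-Rnr2 down overlap. All were measured in the same embryos, so this overlap does not settle their order, which was not tested. The first 15 genes held 29.5% of all gene counts.

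Abundant genes were more even in the median, but not all were uniform. Over the 51 genes with a mean of at least 1000 CPM the median coefficient of variation (SD over mean) was 21.4%. It was 34.8% over all ranked genes. Among the 51 it reached 45.2% for mt-Cytb, the cytochrome b of the respiratory chain. Of the 51, 37 lay above the trend, which is low there: the expected variance of the 50 most abundant genes was 0.0234 to 0.0677. Omt2a, an oocyte transcript, was among the even ones at 4201 ± 425 CPM (SD, n = 9), between 3464 CPM in embryo 8 and 4630 CPM in embryo 4. mt-Cytb had 3315 CPM in embryo 8, a median of 7515 CPM, and 14947 CPM in embryo 1. mt-Co1, a subunit of cytochrome oxidase, had 3001 CPM in embryo 8, a median of 6597 CPM and 11433 CPM in embryo 1. Both mitochondrial genes were thus lowest and highest in the same embryos. All 9 ranked mitochondrially encoded genes lay above the trend and none was in the most variable 10%; their part of all gene counts was 2.21% to 6.61%, highest in embryo 1. Embryo 1 also had the lowest gene counts per ERCC count, and the part of this in the mitochondrial values was not tested.

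**Figure D1:**
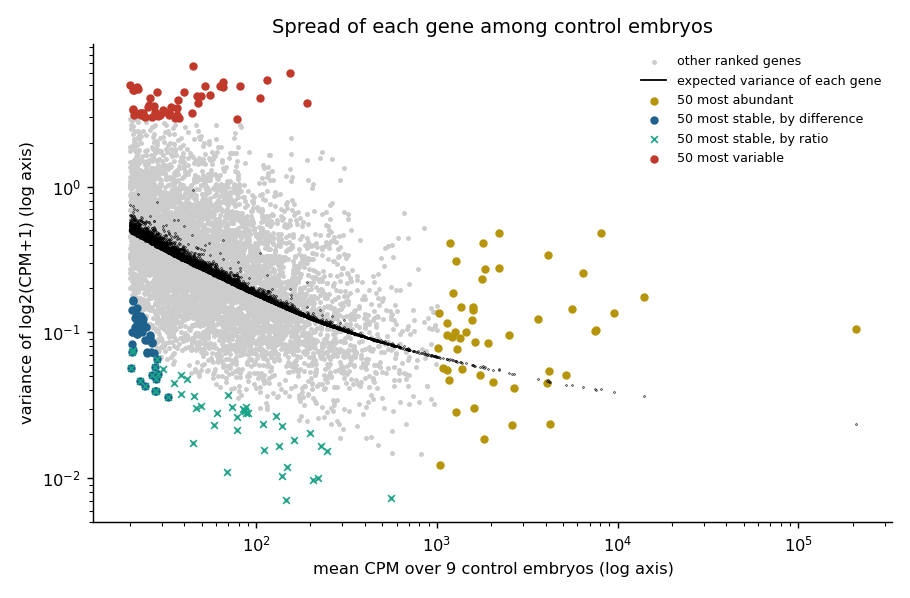
Variance of log2(CPM+1) against mean CPM for the 6738 ranked genes over the 9 control embryos, both on log axes. Black marks give the variance expected at each gene's mean log2(CPM+1); the 50 most variable genes lie above 2.91 in variance, and the 50 most stable by difference all lie between 20.4 and 32.5 CPM.

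Spike-in RNAs, which are meant to be equal in amount in each library, give a part of the spread that handling and sequencing leave at a given level. Equal addition was assumed here. Genes were scaled to gene counts, while the spike-in values hold no shift of the whole ERCC total between libraries. That shift was not small: gene counts without Rn45s per ERCC count ranged from 8.54 in embryo 1 to 15.7 in embryo 2. At 20 to 100 CPM the median variance of log2(CPM + 1) was 0.0529 over 13 ERCC RNAs and 0.322 over 5045 genes. At 100 to 1000 CPM it was 0.0162 against 0.133, and at 1000 CPM or more 0.00410 against 0.101. In the 3 ranges 86.5%, 95.7% and 96.0% of genes exceeded the most variable spike-in. Most genes thus spread more between embryos than the spike-ins of the same level. The spike-in values hold only a part of the technical spread, so the values are a description and no test. The parts of biological and technical differences in the spread of genes were not tested.

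The most variable genes were of modest abundance, with means of 20.1 to 192 CPM and a median of 33.0 CPM. Their excess variance ranged from 2.47 to 5.79, with a median of 3.03, and they include 7 predicted genes. The last gene inside the set was Dffb at 2.47 and the first outside was Spic at 2.44. In 35 of the 50 (70.0%) at least 1 embryo held no count at all, against 0.698% of all ranked genes. A count of 0 allows up to 0.864 to 1.67 CPM, which is 3 counts of the library's total. For 44 of the 50 (88.0%) the embryo farthest from the median was on the low side, against 61.9% of all ranked genes. On this scale the farthest embryo was thus more often a low one than a high one. Some of these genes also had a high embryo, such as AU015228, at 0 CPM in embryo 4 and 386 CPM in embryo 3. An empty embryo adds much to a variance of log2 values. That measure chose the set, so both shares are a description.

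BC147527 (chromosome 13, 120300392 to 120308779, protein-coding) had the largest excess variance, 5.79 ± 4.61 (jackknife SE over embryos). It had no count in embryo 2, a median of 6.14 CPM and 362 CPM in embryo 3. The next highest embryo, embryo 1, had 13.5 CPM, so a single embryo held most of its counts. Gli3 (chromosome 13, 15463235 to 15730026), a transcription factor of the Hedgehog pathway, had 0.348 CPM in embryo 8, a median of 135 CPM and 368 CPM in embryo 9, with an excess variance of 5.77 ± 4.89. Here the other 8 embryos lay between 40.5 and 368 CPM, and embryo 8 stood alone. Trim43b, of a family of tripartite motif genes used in preimplantation embryos, had 0.330 CPM in embryo 1, a median of 87.0 CPM and 463 CPM in embryo 3. AU015228 had no count in embryo 4, a median of 35.6 CPM and 386 CPM in embryo 3.

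Wdr77 (chromosome 3, 105959369 to 105970037), a partner of the arginine methyltransferase Prmt5, had no count in embryo 7, a median of 74.9 CPM and 157 CPM in embryo 3. Hipk1, a kinase that binds homeodomain proteins, also had no count in embryo 7, a median of 43.0 CPM and 240 CPM in embryo 3. Ctsc, the protease cathepsin C, had no count in embryo 2, a median of 49.3 CPM and 146 CPM in embryo 5. In each of these 3 genes every other embryo was above the low one by a wide margin: the second lowest values were 45.5, 16.2 and 17.1 CPM. Gpr83 and Gprc5a encode receptors coupled to G proteins. Gpr83 had no count in embryo 3, a median of 36.2 CPM and 140 CPM in embryo 5. Gprc5a had no count in embryos 2 and 3, a median of 15.1 CPM and 54.0 CPM in embryo 5. Both were thus absent from embryo 3 and highest in embryo 5.

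Among the next genes, Nid2, of the basement membrane, had no count in embryos 1 and 8, and Nefl, a neurofilament subunit, none in embryo 8. Il15ra, a receptor chain of interleukin 15, had none in embryos 3 and 4, and Jph2, a junctophilin, none in embryo 4. Gm4850 and Gm13078 had none in embryo 1 and were highest in embryo 3, at 204 and 137 CPM. The excess variance of these 6 genes was 3.81 to 4.16, with jackknife SEs from 1.62 to 3.61. The SEs of the first 15 genes were as large as 4.89, so the order within the set is not fixed by 9 embryos.

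**Figure D2:**
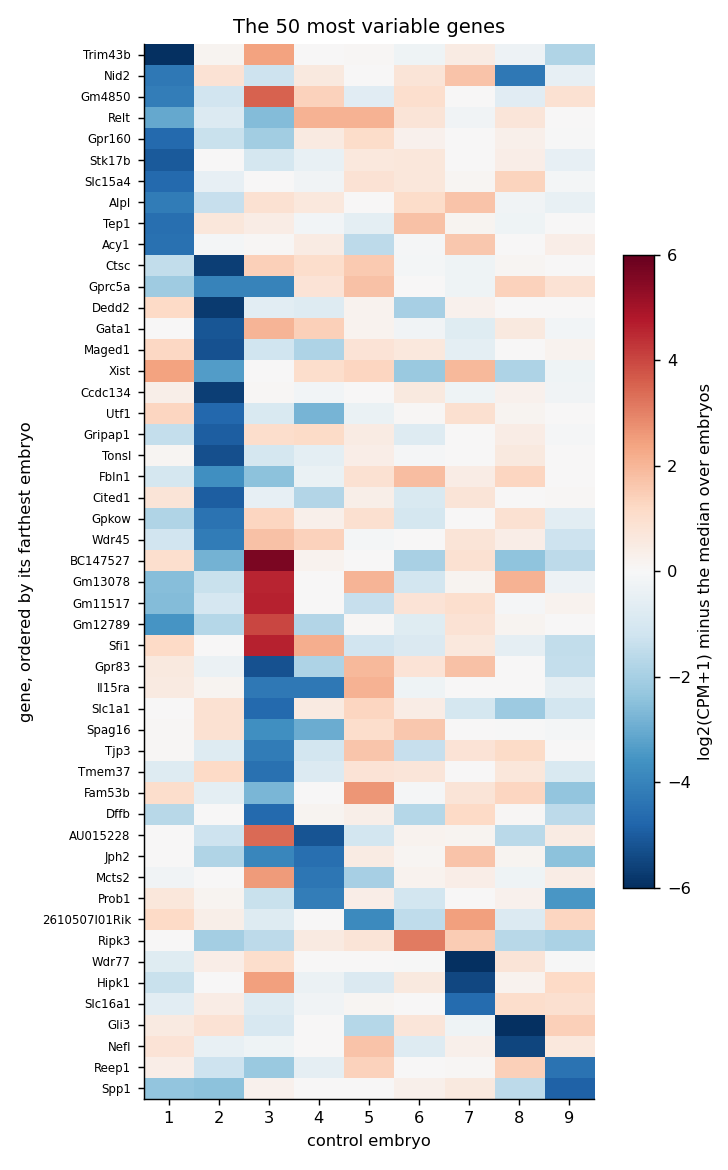
Level of each of the 50 most variable genes (rows) in each control embryo (columns), as log2(CPM+1) minus the gene's median over the 9 embryos, ordered by the embryo farthest from the median. The blocks of genes farthest on the low side differ in size (14 in embryo 2, 10 in embryo 1), and embryo 6 has no such gene. Of the 6 genes farthest on the high side, embryo 3 carries 5 and embryo 6 carries 1.

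Each gene was assigned to the 1 embryo farthest from its median, so the counts below cannot show whether embryos shared low genes. Some genes were low in more than 1 embryo, such as Prob1, at 1.62 CPM in embryo 4 and 3.17 CPM in embryo 9. Embryo 2 was the farthest, on the low side, for 14 genes, embryo 1 for 10, embryo 3 for 8, embryo 4 for 4, embryo 7 for 3, embryos 8 and 9 for 2 each and embryo 5 for 1. The high side held 6 genes, of which embryo 3 was farthest for 5 (BC147527, Gm13078, Gm11517, Gm12789 and Sfi1) and embryo 6 for 1. The last is Ripk3, a kinase of necroptosis, at 208 CPM in embryo 6 against a median of 23.1 CPM.

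In embryo 3 the high genes were extreme. Sfi1, a centrin-binding protein of the centrosome, had 16.7 CPM in embryo 9, a median of 47.8 CPM and 1179 CPM in embryo 3. Gm11517, a processed pseudogene in the annotation, had 3.96 CPM in embryo 1, a median of 28.7 CPM and 719 CPM in embryo 3. Gm12789 had none in embryo 1, a median of 10.7 CPM and 189 CPM in embryo 3. Embryo 3 was also the embryo with the fewest gene counts and the fewest genes detected. A list of 2-cell and genome activation genes had 20 ranked members, of which 12 were in the most variable 10% of control embryos and 19 lay above the trend. Their summed level was lowest in embryo 1 at 1063 CPM, had a median of 1417 CPM and was highest in embryo 3 at 6091 CPM. Other lists were highest in embryo 3 as well, among them ribosomal protein genes (9297 CPM against a median of 4999 CPM), splicing genes (4145 against 2564 CPM) and housekeeping genes of genome activation (7282 against 5264 CPM). Obox6, an oocyte-specific homeobox gene, had 4.61 CPM in embryo 1, a median of 39.1 CPM and 326 CPM in embryo 3. Sp110, a nuclear body protein, had 92.6 CPM in embryo 1, a median of 155 CPM and 1252 CPM in embryo 3. Klf17, a Krüppel-like factor, differed less, from 408 CPM in embryo 9 to 928 CPM in embryo 3. Arg2, a mitochondrial arginase, was the member with the lowest excess variance, at −0.19.

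Other lists, all chosen with earlier results of these data known, had a smaller share of members in the most variable 10%. By the median ratio of variance to expected variance, the mitochondrially encoded genes (6.02) and the glycolysis genes (3.29) stood above the 2-cell list (3.19). Among 69 ranked maternal oocyte transcripts, 2 were in the most variable 10%, Obox7 and Nlrp4f, and 36 lay above the trend. Among 12 ranked imprinted genes 6 were in the most variable 10%, led by Xist and Mcts2, the second a retrogene on chromosome 2 that lacked a count in embryo 4. Among 14 ranked glycolysis genes 5 were in it, led by Pfkfb3, which makes the fructose bisphosphate that stimulates glycolysis, at 3.33 CPM in embryo 3 and 85.2 CPM in embryo 5. Of 15 ranked pluripotency and preimplantation factors, Utf1 and Tead4 were in it: Utf1, a chromatin protein of pluripotent cells, had no count in embryo 2, a median of 25.3 CPM and 63.9 CPM in embryo 1. Pou5f1, the pluripotency factor Oct4, lay near the trend, from 157 CPM in embryo 6 to 335 CPM in embryo 7. Of 50 ranked chromatin modifiers only Kdm4b was in the most variable 10%, while 7 were in the 10% most stable by ratio. 

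The 50 most stable genes by difference were set largely by their abundance. All lay between 20.4 and 32.5 CPM, near the minimum for ranking, and their expected variance was 0.351 to 0.483, so more could be subtracted there than from abundant genes. Usmg5, a small subunit associated with ATP synthase, came first, with 13.5 CPM in embryo 9, a median of 21.1 CPM and 25.8 CPM in embryo 6, and an excess variance of −0.42 ± 0.06. Vezf1, a zinc finger factor, had 13.8 CPM in embryo 9, a median of 21.7 CPM and 25.1 CPM in embryo 4. Fbxo22, a substrate receptor of a ubiquitin ligase, had 17.8 CPM in embryo 2, a median of 22.7 CPM and 28.3 CPM in embryo 3. B4galt5, a galactosyltransferase of glycolipid synthesis, had 20.7 CPM in embryo 9, a median of 27.9 CPM and 31.6 CPM in embryo 4. Rpl35a, a protein of the large ribosomal subunit, had 22.4 CPM in embryo 6, a median of 25.2 CPM and 37.8 CPM in embryo 3. The first 15 also hold Zfp729b, Slc38a8, Crtc1, Arl14epl, Acap2, Egln1, Ehbp1, 0610010F05Rik, Gm4925 and 1600020E01Rik, with means of 20.5 to 24.9 CPM. None of the 50 lacked a count in any embryo. Gm11665 at −0.314 was the last inside the set and Inpp5a at −0.313 the first outside.

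Ranked by the ratio of variance to expected variance, which does not favour low genes, the most stable 50 had means of 20.4 to 556 CPM with a median of 69.4 CPM, and 13 of them were also in the set by difference. Ppih (chromosome 4, 119300010 to 119320546), a cyclophilin of the spliceosome, varied least, with 137 CPM in embryo 1, a median of 147 CPM and 162 CPM in embryo 3. Its variance was 0.0486 of that expected. Brk1, of the WAVE complex that drives actin branching, lay between 61.6 CPM in embryo 3 and 76.3 CPM in embryo 9. Cecr2, a bromodomain protein of chromatin remodelling, lay between 125 and 151 CPM, and Nap1l1, a histone chaperone, between 130 and 166 CPM. Tet3, the enzyme that oxidises 5-methylcytosine in the zygote, had 188 CPM in embryo 9, a median of 210.4 CPM and 233 CPM in embryo 7. Insig1, a regulator of sterol synthesis, lay between 195 and 245 CPM, and Fkbp1a, a prolyl isomerase, between 514 and 633 CPM. Ramp3, Arl3, Cep170b, Fam169a, Zdhhc6 and Sytl2 complete the named genes of this set together with B4galt5 and Gm4925, at means of 24.3 to 111 CPM.

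The HU embryos gave a reading of these genes in libraries the ranking did not use. Of the 50 most variable genes in controls, 33 (66.0%) were within the most variable 10% of HU embryos, where 9.99% of all ranked genes lie, and 47 lay above the trend of the HU embryos. Over all ranked genes, 39.4% of the first 10% of the control ranking lay in the first 10% of HU embryos, then 22.4%, 11.1% and 8.16% of the next steps of 10%. BC147527 had no count in HU embryo 8, 145 CPM in HU embryo 4 and rank 18 for variability among HU embryos. Trim43b lay between 18.9 and 549 CPM there, and Gm12789, which ranked 1 in HU embryos, between 0 and 256 CPM. Fbln1, an extracellular matrix protein, was the opposite case: 0.869 CPM in control embryo 2, yet 14.2 to 42.3 CPM in the 8 HU embryos and rank 6427. Of the 20 ranked genes of the 2-cell list, 14 were in the most variable 10% of HU embryos, against 12 in controls.

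Stability was shared less. Of the 50 most stable genes by difference, 21 (42.0%) were in the most stable 10% of HU embryos, against 9.99% of all ranked genes, and this measure again follows abundance in both groups. By ratio, 15 of 50 (30.0%) were in the most stable 10% by ratio of HU embryos. Ppih lay between 81.3 and 175 CPM in HU embryos and Brk1 up to 116 CPM, a wider range than in controls. Both were chosen for their narrow range in controls, and that choice favours a wider range in any other embryos. Whether the spread differs between the groups was not tested.

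**Figure D3:**
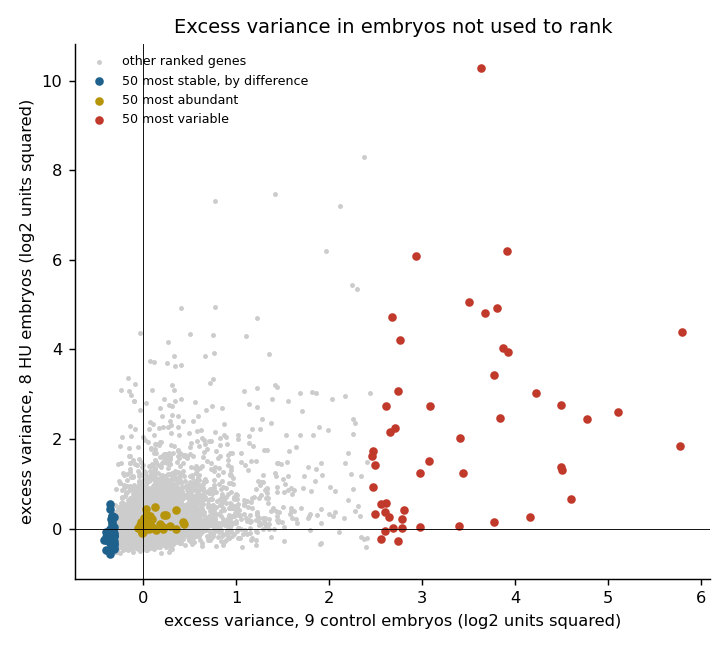
Excess variance of each ranked gene in the 9 control embryos (horizontal) and in the 8 HU embryos (vertical), which were not used to rank. Of the 50 most variable genes in controls, 47 lie above 0 in HU embryos, while 11 of the 50 most stable by difference do.

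In mean level, none of these genes reached an adjusted p under 0.05 between HU and control embryos in edgeR's quasi-likelihood test. The Benjamini-Hochberg adjustment was over 11476 genes, of which 0% passed. DESeq2 called 3 of the 11476 (0.0261%) and none of the 50 most variable, the 50 most stable by either measure or the 50 most abundant. At an unadjusted p under 0.05 edgeR had 671 genes (5.85%), of which none was among the 50 most variable, 5 among the 50 most stable by difference, 3 among the most stable by ratio and 6 among the 50 most abundant. Gpr160, an orphan receptor, had the smallest unadjusted p of the variable genes, at a log2 difference (HU minus control) of 1.02 ± 0.52 (SE) and an adjusted p of 0.835 in edgeR, and Wdr77 followed at 0.94 ± 0.52 and the same adjusted p. For BC147527 the log2 difference was −0.29 ± 1.09 (SE), and for Ppih it was −0.15 ± 0.16. Arl14epl had the smallest unadjusted p of the 50 most stable by difference, at −1.25 ± 0.33 and an adjusted p of 0.829 in edgeR. It lay between 3.71 and 14.9 CPM in HU embryos and between 16.0 and 30.7 CPM in controls. Of those 50 genes, 32 were higher in HU embryos. The most abundant 50 had a median log2 difference of −0.26, with 3 of 50 higher in HU embryos, against a median of 0.04 over all genes tested.

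No variable gene was called for a slope on a library measure across the 9 control embryos (edgeR, 12749 genes tested). For a slope on library depth, 0% of genes passed and 708 genes (5.55%) had an unadjusted p under 0.05, including 9 of the 50 variable genes. DESeq2 called 6 of all genes (0.0471%) and none of the 50. The most variable gene, BC147527, had a slope of −1.85 ± 0.43 (SE) on the log2 scale per SD of log2 depth and Sfi1 −1.36 ± 0.31, both at an adjusted p of 0.376 in edgeR. Embryo 3, the shallowest, was where both were highest, and without it the smallest adjusted p among the 50 genes was 1.00. For gene counts per ERCC count 0% of genes passed, 472 (3.70%) had an unadjusted p under 0.05, 5 of them variable genes, and DESeq2 called 6 of all genes and none of the 50. For the Rn45s share the 1 gene called, 0.00784% of those tested, was Rn45s itself, from which the share is made, while DESeq2 called 6 genes (0.0471%), none of the 50 variable ones, and 434 genes (3.40%) had an unadjusted p under 0.05 in edgeR, 1 of them a variable gene.

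Over the 1225 pairs of the 50 most variable genes, 68 pairs (5.55%) had a Pearson r of at least 0.8 across the 9 embryos, against 1.02% of the pairs of all ranked genes. The median r was 0.05. Without embryo 3, 83 pairs (6.78%) reached 0.8, against 1.58% over all ranked genes, and 54 of the 68 were among them. These are descriptions, as all pairs share the same 9 libraries and the genes were chosen for their spread. Of the 68 pairs, 60 joined genes with the same farthest embryo other than a high embryo 3, such as Ccdc134 and Tonsl, both without a count in embryo 2, at r = 0.96. A shared far embryo itself raises r, and the part of it in each pair was not tested. Leaving out each embryo in turn gave 60 to 91 pairs at 0.8.

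The 10 pairs of genes chosen as high in embryo 3 had a median r of 0.60 with that embryo and −0.14 without it, a fall that the choice of these genes favours. Single pairs kept part of it without embryo 3, such as Gm11517 and Gm12789 at r = 0.71. In HU embryos, which played no part in choosing them, the same 10 pairs had a median r of 0.63, and Gm11517 and Gm12789 an r of 0.89, with 9 of 10 pairs above 0. HU embryo 4 was the highest HU embryo for 4 of these 5 genes, all but Sfi1. Pairs that shared another farthest embryo carried over less: over all 175 such pairs the median r was 0.71 in controls and 0.13 in HU embryos. The 68 pairs with an r of at least 0.8 in controls had a median r of 0.24 in HU embryos. Of these 68, 44 were above 0 and 6 reached 0.8 in HU embryos. Over the pairs of all ranked genes the median r in HU embryos was 0.02. For BC147527, the most variable gene, its relation with each of the other 49 was tested by a 2-sided exact permutation over the 9 embryos. No relation passed after Benjamini-Hochberg adjustment over the 49, by Pearson's r (3 with an unadjusted p under 0.05) or Spearman's rho (2). The largest was with Tmem37, at r = −0.89 (exact permutation p = 0.00744, adjusted 0.201) and rho = −0.68 (exact permutation p = 0.0503, adjusted 0.772). Without embryos 2 and 3, which lay farthest from the median, r was −0.41, so the relation rests on them.

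In some embryos a part of the low genes lay near each other on a chromosome. This was noticed after the ranking was seen. Among the 661 genes of the most variable 10% with 1 known position, the median r was 0.57 for pairs 1 to 5 Mb apart, 0.42 at 5 to 20 Mb, 0.24 farther apart on 1 chromosome and 0.12 on different chromosomes. In HU embryos the same genes, not chosen there, had 0.33, 0.29, 0.16 and 0.09. Over all ranked genes of the control embryos the 4 values were 0.18, 0.15, 0.10 and 0.07. In the 12 cumulus cells 592 of the variable genes had values from 0.08 to 0.10 at every distance. Here the single cells are the units, so these values are a description. A median of 6862 genes had a count per cumulus cell, against 14513 per control embryo. The 50 most variable genes had a median of 4.26 CPM in cumulus cells. The part of low counts in the cumulus values was not tested. Pairs closer than 1 Mb were left out, since overlapping genes and gene clusters can share reads. The difference in median r between pairs 1 to 5 Mb apart and pairs on different chromosomes was 0.45 ± 0.16 (jackknife SE over embryos) in controls, and 0.27 by Spearman's rho.

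**Figure D4:**
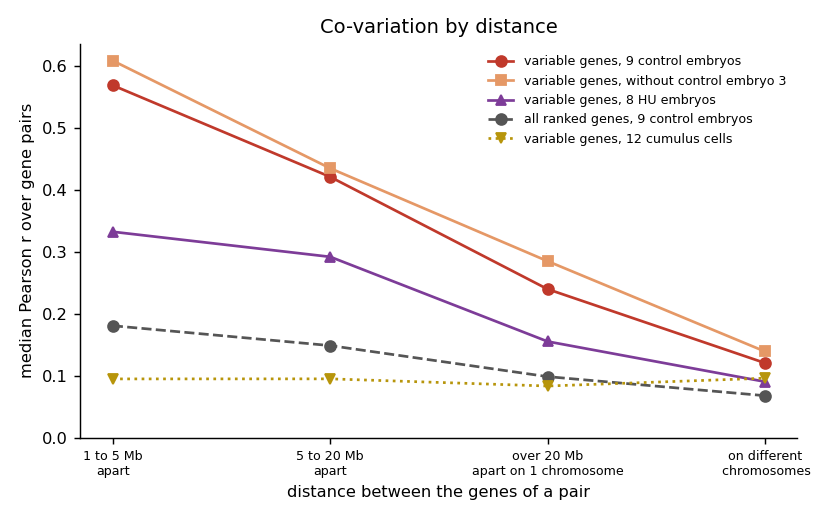
Median Pearson r over pairs of genes (vertical) by the distance between them (horizontal), for the most variable 10% of genes in control embryos, with and without embryo 3, in HU embryos and in cumulus cells, and for all ranked genes in control embryos. The embryo lines fall from left to right, in controls from 0.57 to 0.12, and the cumulus line stays between 0.08 and 0.10. The cumulus line rests on single cells, in which fewer genes had a count than in embryos.

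Genes at least 4-fold below the median of the 9 embryos were counted by chromosome, over 6230 genes with a median of at least 20 CPM. Embryo 7 had 11 such genes (0.177% of all) and 6 of them lay on chromosome 3 between 100000001 and 110000000. There they were 6 of 36 genes, against 0 of 242 on the rest of the chromosome and 0 in any other control embryo. The 6 genes, of which Hipk1, Slc16a1 and Wdr77 are among the 50 most variable, are Sike1, Hipk1, Slc16a1, Ddx20, Atp5f1 and Wdr77. Slc16a1 (chromosome 3, 104638668 to 104658462), a lactate and pyruvate transporter, had 1.99 CPM in embryo 7 and 42.7 to 154 CPM in the other 8. Ddx20, an RNA helicase of the SMN complex, had 2.66 CPM against 46.8 to 138 CPM, and Atp5f1, a subunit of ATP synthase, 19.3 CPM against 138 to 202 CPM. All 8 other embryos were above embryo 7 in each of these 6 genes. Atp5f1 and Wdr77 overlap in the annotation, and how reads of overlapping genes were assigned is not given in the sources used here.

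Embryo 2 had 99 low genes (1.59%), with 29 of the 249 on chromosome 15 (11.6%), 19 of the 164 on the X (11.6%) and 25 of the 410 on chromosome 7 (6.10%). On chromosome 15 between 70000001 and 90000000, 27 of 103 genes were low, against 2 of 146 on the rest and 0 or 1 in each other control embryo. Tonsl and Ccdc134 had no count there, against 17.2 to 55.7 and 40.9 to 74.5 CPM in the other 8 embryos. Rpl3, a ribosomal protein gene, had 4.78 CPM against 28.7 to 88.4 CPM, and Adsl, an enzyme of purine synthesis, 3.04 CPM against 46.5 to 169 CPM. The 7 X-linked genes among the 50 most variable (14%, against 2.68% of all ranked genes) were all farthest from the median, on the low side, in embryo 2. Gata1, an erythroid transcription factor, had no count in embryo 2, a median of 34.3 CPM and 144 CPM in embryo 3. Gripap1, Gpkow and Wdr45, which lie near Gata1 on the X, also had no count in embryo 2, at medians of 30.2, 20.6 and 17.2 CPM. Cited1 and Maged1 had none either, at medians of 29.9 and 36.2 CPM. Xist, the RNA that coats the inactive X, had 0.434 CPM in embryo 2, a median of 13.9 CPM and 79.4 CPM in embryo 1, and it was also low in embryos 6 and 8, at 2.15 and 3.13 CPM. Ranked without embryo 2, none of the 50 most variable genes was X-linked.

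Embryo 1 had 125 low genes (2.01%), with 34 of the 403 on chromosome 9 (8.44%). Embryo 9 had 94 (1.51%), with 18 of 158 on chromosome 18 (11.4%), and embryo 4 had 44 (0.706%), with 15 of 477 on chromosome 2 (3.14%) and 10 of 158 on chromosome 18 (6.33%). Embryo 3 had 81 low genes (1.30%) and 50 high ones (0.803%), and no chromosome stood out among them by the rule used, at least 5 low genes and 3 times the embryo's share. Embryo 5 had 13 low genes (0.209%), and embryos 6 and 8 had 14 each (0.225%). No chromosome of any embryo stood out by the same rule for high genes. The HU embryos showed the same kind of pattern: HU embryo 2 had 159 low genes (2.51%), of which 67 of 410 lay on chromosome 4 (16.3%). Counted in windows of 10 Mb, 20 of 2439 embryo windows in controls and 30 of 2176 in HU embryos held at least 4 low genes. The control windows lay in embryos 1, 2, 4, 7 and 9, and the other control embryos had no such window. HU embryo 2 held 16 of the 30; the count of HU windows was 17 without that embryo and 19 without HU embryo 3. What sets these runs of low genes, whether in the chromosomes or in the libraries, was not tested, and no DNA was measured here.

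**Figure D5:**
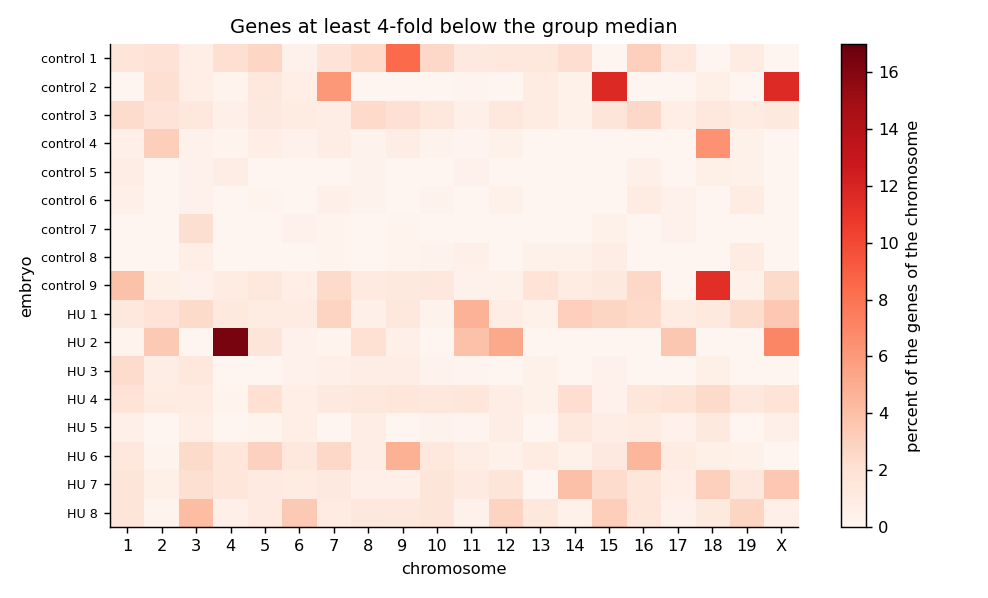
Percent of the genes of each chromosome (columns) that lay at least 4-fold below the median of their group, in each control and HU embryo (rows). Single cells of the map stand out, such as chromosomes 15 and X in control embryo 2 (11.6% each) and chromosome 4 in HU embryo 2 (16.3%).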

How the data were processed

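Smart-seq2 RNA-seq libraries were read from 2 deposited tables, raw counts per gene and FPKM. The submitters' processing notes name FastQC, STAR 2.7.3a, R 4.0.2 and the mm10 build. How reads were counted, on which annotation and strand, is not given in the sources used here. Deposited FPKM values equalled CPM, without ERCC rows, per kilobase of a fixed length for 18588 of 18588 genes checked (tolerance 0.001), and served only to compare levels between genes. The 92 ERCC rows stayed out of library sizes. The members and gene lists were chosen with earlier results of these data known.

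Expected variance was a loess trend (span 0.3, statsmodels 0.14.6) of log2 variance on mean log2(CPM + 1), fitted on 14217 genes with a mean of at least 1 CPM. This was decided after the ranking was seen: a first trend over the genes of at least 20 CPM was bent by that threshold and placed very variable genes among the stable ones. Tests used edgeR 4.0.16 (quasi-likelihood, TMM, filterByExpr with the design matrix) and DESeq2 1.42.0 as the alternative, in R 4.3.3. For slopes the low-count filter was changed after output was seen, since the first version, all 9 embryos as 1 group, tested only 2 of the 50 variable genes. The labels name no separate cultures, so a p-value reflects only how far these embryos spread. The other steps used Python 3.11.15, numpy 2.4.6, pandas 2.3.3, scipy 1.17.1 and matplotlib 3.10.9, and the ranking and models were tested on simulated data. Intervals and floors (3 counts) cover counting error only.

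Named are the first 15 genes of each set, the highest and lowest member of lists, and genes at thresholds. Gm4850, Gm11517, Gm12789, Sp110, Klf17, Pou5f1, Tead4 and genes named by position were chosen after their values were seen. Positions are GENCODE M21 (GRCm38), for 6521 ranked genes with 1 position. The analysis by position was added after seeing the data, its rule for low genes is the third version tried, and the thresholds of windows, chromosomes, CpG content and motifs were also chosen with the data in view. Alternatives covered scaling, pseudocount, thresholds, spread measure, trend, thinning and leaving out each embryo.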

Additional observations from a re-analysis of the deposited data

Results flagged for a closer look

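In 8 of 63 groups of embryo values, 1 embryo stood farther from the others than the 95% limit of Dixon's test allows. Chance flags about 1 in 20 groups, but 7 of the 8 are genes chosen for their spread over the same embryos, which favours a far embryo, so the count cannot be read against chance and the values are a description. BC147527 in control embryo 3 lay far above the other 8 embryos, at 362 CPM. Gli3 in embryo 8, at 0.348 CPM, and Trim43b in embryo 1, at 0.330 CPM, lay far below the others. Wdr77 and Hipk1 in embryo 7, Ctsc in embryo 2 and Nefl in embryo 8 had 0 CPM while the other embryos held the transcript. The mitochondrial share of gene counts in embryo 1 was the highest at 6.61%.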

How the results depend on the processing

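Of the 50 variable genes, 22 were shared with log2(CPM+10), 21 with the ratio in place of the difference, 19 with the median absolute deviation, and 11 and 25 with a minimum of 50 and 5 CPM. The stable set by difference shared 27 genes with ERCC scaling, 11 with Rn45s left out, 31 with log2(CPM+10), 13 with the ratio, 9 with the median absolute deviation, 0 with either other minimum and 18 with the trend over genes of at least 20 CPM. The set stable by ratio shared 22 with TMM, 12 with ERCC scaling and 28 without Rn45s. Pairs at 0.8 were 27 by Spearman's rho and 39 with log2(CPM+10). The distance difference was 0.267 by Spearman's rho, and windows with at least 4 low genes were 6 at 8-fold and 5 at a median of at least 50 CPM.

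Leaving out each embryo in turn gave 33 to 44 shared variable genes, 28 to 35 stable ones by difference and 28 to 35 by ratio, 60 to 91 pairs, 28 to 36 variable and 15 to 24 stable genes in the first and last 10% of HU embryos, 0 to 8 genes on the X (0 without embryo 2), 30 to 37 without a count, 38 to 48 low, 15 to 24 windows in controls and a distance difference of 0.289 to 0.486. Leaving out each HU embryo gave 17 to 33 HU windows, 17 without HU embryo 2 and 19 without HU embryo 3. Variable genes called in any model were 0 to 0.

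Of 855 values for 45 named genes, 26 changed sign. For Khdc1b they were 0.000372 with TMM, 0.000285 without Rn45s and 0.000173 after thinning, and −0.0235 to 0.00655 without 1 embryo, above 0 without embryos 2, 4, 5, 6 or 8. For Ccdc6 they were 0.0322 with TMM, 0.0146 without Rn45s and −0.0321 to 0.00342 without 1 embryo, above 0 without embryo 3. For Gm1965 they were −0.00219 with log2(CPM+10), −0.0375 with a running median, −0.0214 with the trend over genes of at least 20 CPM and −0.00769 (without embryo 4) to 0.0131 without 1 embryo. For Omt2b they were −0.000356, −0.0340 and −0.0185 under the same settings, −0.0166 with the median absolute deviation and −0.0164 (without embryo 8) to 0.0222 without 1 embryo. With the median absolute deviation Trim43b was at −0.0117 and mt-Co1 at −0.00606. With the trend over genes of at least 20 CPM, BC147527 was at −14.4, Gprc5a at −0.319, Jph2 at −0.592 and Gm13078 at −8.84. That trend rises steeply at its lower end; the cause of the other changes was not tested.

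Correlations of same-numbered deviations between control and HU embryos were −0.104 to 0.278, and 0 of 8 embryos correlated best with their own number. The labels do not say what a replicate number marks. These values cannot tell whether embryos of the same number shared a day or a female. With the replicate block 0 of the 50 variable genes were called (smallest adjusted p 0.923 in edgeR). Slopes with the first low-count filter called 0 of 2 variable genes. A count of 0 limits a gene to 0.864 to 1.67 CPM in an embryo.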
